A study of Mus musculus with 6 samples.

Results

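Respiratory complex I transcripts were compared between the spinal cords of Dhtkd1 null and wild-type mice. The members were all non-control probes whose gene name in the scanner files begins with Nduf, which gave 44 of the 27343 gene names on the array and 69 of its 41174 probes. All 44 names are current mouse symbols, and the genes lie on 16 chromosomes. Of the 69 probes, 67 passed the filter on dim signal and were tested, and at least 1 probe of every gene was among them. No member probe was named Ndufa4l2, Ndufb1 or Ndufaf8, and these genes were not analysed here.

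Total RNA came from 3 Dhtkd1 null and 3 wild-type samples, with 1 single-colour array each. Both groups were male C57BL/6 mice, 8 weeks old, kept under specific pathogen-free conditions, and the labels name no treatment. The null allele is not described further in the labels, and neither the deleted part of Dhtkd1 nor the cells in which it is lost is stated. The labels number the samples without saying that each is a separate animal, so the p-values reflect how samples vary as they were labelled.

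Complex I, NADH:ubiquinone oxidoreductase, is the largest enzyme of the mitochondrial respiratory chain. It takes electrons from NADH in an arm that reaches into the matrix, passes them along iron-sulfur clusters to ubiquinone, and pumps protons through an arm that lies in the inner membrane. Its core subunits come from nuclear genes and from mitochondrial DNA, many accessory subunits surround them, and assembly factors that are absent from the finished enzyme help to build it. Spinal neurons, with their long axons, rely heavily on respiration, and inherited defects of this complex cause diseases of the nervous system. Dhtkd1 encodes a subunit of a mitochondrial dehydrogenase in the breakdown of lysine, a pathway whose reducing equivalents include NADH.

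Signals are on a log2 scale on which 0 is the 75th percentile of processed intensity on the same array. That percentile ranged from 950 to 1055 intensity units, and between 78.4% and 82.0% of spots were well above background. Wild-type sample 3 was lowest on both. No spot was saturated. All 6 neuron markers, all 6 oligodendrocyte markers and all 6 astrocyte markers looked for were well above background on every array. Dhtkd1 itself had signals of -4.05, -4.05 and -4.16 in null samples and -2.91, -3.02 and -3.10 in wild-type samples at one probe (chr2:5817910-5817969, mm9). At the other (chr2:5825028-5825087) the signals were -4.33, -3.43 and -4.03 in null samples and -2.46, -3.16 and -2.97 in wild-type samples. The log2 differences, null minus wild-type, were -1.08 (SE 0.08, limma adjusted p 0.0923) and -1.07 (SE 0.28, adjusted p 0.514). Every null sample lay below every wild-type sample at both probes. Whether either probe lies in the deleted part is not known, so how far each checks the label is not known either.

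No complex I probe passed the test at an adjusted p under 0.05 by limma, where 0.00% of all 33208 probes tested passed. The lowest adjusted p among the members was 0.563. At an unadjusted p under 0.05, 1 member was higher in null samples, an Ndufb2 probe, and none was lower, where 5.52% of all probes were called higher and 2.68% lower. Fewer cells of a type and less RNA per cell cannot be told apart in RNA from whole cord, here and below. In all, 27 member probes had a higher and 40 a lower mean in null samples. The lower share was 59.7%, beside 41.8% of all probes tested, and the median log2 difference was -0.02 over the members and 0.03 over all probes.

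The differences were small in both directions, from -0.16 at an Ndufv3 probe to 0.28 at the Ndufb2 probe. The median size of a difference was 0.05 over the members and 0.12 over all probes tested, and the median SE was 0.09 over the members and 0.12 over all probes. Small sizes were not particular to complex I, as other mitochondrial lists described below had them too. Median size and median SE were 0.04 and 0.09 over complexes III, IV and ATP synthase. They were 0.05 and 0.09 over the mitochondrial ribosome, and 0.08 and 0.08 over complex II. The 95% interval of the difference lay within a 1.25-fold change for 50 of 67 members, or 74.6%, beside 29.5% of all probes. It lay within a 1.5-fold change for 66 members, the exception being 1 of 2 Ndufb8 probes, and within a 2-fold change for all 67. The plot of differences by probe shows these intervals.

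**Figure D1:**
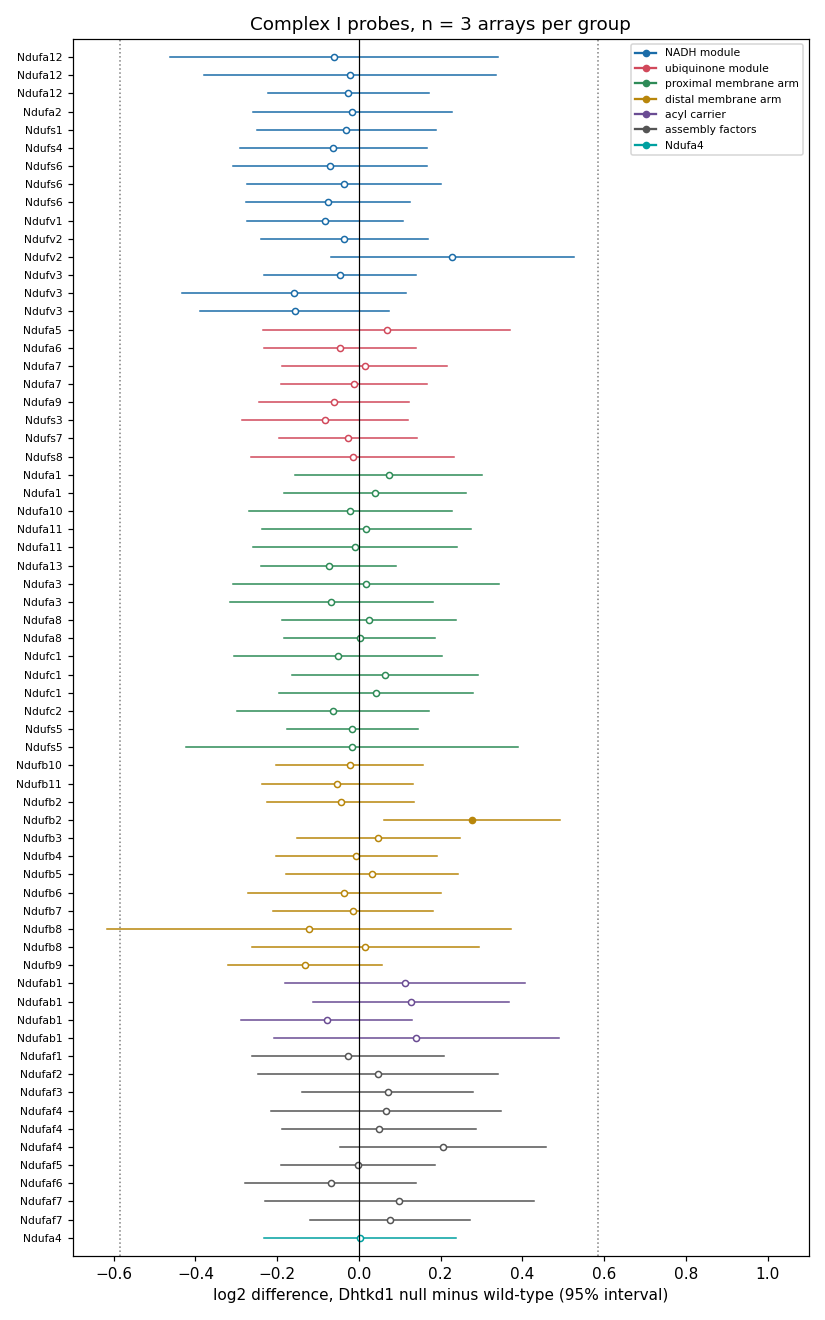
Log2 difference (Dhtkd1 null minus wild-type, x axis, 3 arrays per group) of 66 of the 67 complex I probes tested, 1 row per probe, coloured by role. Lines are 95% intervals, the dotted lines mark a 1.5-fold change, and the filled point, the Ndufb2 probe at 0.28, is the 1 at an unadjusted p under 0.05.

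The NADH module, at the tip of the matrix arm, binds and oxidises NADH. It was measured by 15 probes of 8 genes, of which 14 probes had a lower mean in null samples, with a median log2 difference of -0.05. None of the 15 was called at an unadjusted p under 0.05. Of the 8 genes, 7 were lower at every probe, and Ndufv2 had probes on both sides of 0. The mean over the 15 probes, each taken relative to its own mean over 6 arrays, was -0.02, 0.01 and -0.06 in null samples and 0.05, 0.05 and -0.04 in wild-type samples. The groups overlapped on that measure, because wild-type sample 3 lay below null samples 1 and 2. Without wild-type sample 2 the number of lower probes was 9 of 15 and the median was -0.02, so the count rests in part on that array. The median ran from -0.12 to -0.02 over the 19 alternatives. Several of these, such as outlier spots kept or trend and robust variance, leave the median unchanged by construction and are no separate checks of it.

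Ndufv1, the subunit that binds the flavin cofactor and oxidises NADH (chr19:4007616-4007779), had log2 signals of 5.22, 5.18 and 5.05 in null samples and 5.26, 5.21 and 5.23 in wild-type samples. Its log2 difference was -0.08 (SE 0.08), with null sample 3 the low array and null sample 1 inside the wild-type range. Ndufs1, which carries several of the iron-sulfur clusters (chr1:63190360-63190419), stood at 4.98, 4.90 and 4.86 in null samples and 4.997, 5.03 and 4.81 in wild-type samples. Its log2 difference was -0.03 (SE 0.09), and wild-type sample 3 was below every null sample. Ndufv2, the partner of Ndufv1 with an iron-sulfur cluster of its own, gave 3.11, 2.97 and 2.89 in null samples and 3.03, 3.05 and 3.00 in wild-type samples at its RefSeq probe (chr17:66438669-66438810). The null samples spread on both sides of the wild-type samples there, and the log2 difference was -0.04 (SE 0.08).

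The other Ndufv2 probe, designed on another transcript or clone (chr17:66442062-66442121), had log2 signals of -2.72, -2.57 and -2.56 in null samples and -2.63, -3.01 and -2.89 in wild-type samples. Wild-type samples 2 and 3 were the low arrays, wild-type sample 1 lay among the null samples, and the log2 difference was 0.23 (SE 0.12, limma adjusted p 0.655). Between null samples and wild-type sample 2, the arrays that share a slide, that difference was 0.40 (SE 0.15, unadjusted p 0.0485 and adjusted p 0.677 by limma with slide as a block). Wild-type sample 2 is the only wild-type array of that slide and the lowest at this probe, so here and in the other values within the slide the SE and p take the spread from the null arrays and the wild-type arrays of the other slide.

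Ndufv3, a small accessory subunit of the same module, had the most negative differences of the 67 probes, and its values were chosen after they were seen. At chr17:31664691-31664750 the log2 signals were -1.31, -1.37 and -1.42 in null samples and -1.30, -0.996 and -1.33 in wild-type samples, a difference of -0.16 (SE 0.11). At chr17:31665148-31665207 they were -0.10, -0.08 and -0.22 in null samples and -0.12, 0.13 and 0.06 in wild-type samples, a difference of -0.16 (SE 0.09). Wild-type sample 2 was the highest array at both, and each pair of groups overlapped. At the Ndufv3 probe further upstream (chr17:31658570-31658629) the difference was -0.05 (SE 0.08). Within the slide that holds all null samples and wild-type sample 2, the Ndufv3 probe at chr17:31664691-31664750 differed by -0.37 (unadjusted p 0.0175, adjusted p 0.581 by limma), against the 1 wild-type array that was highest at this probe.

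The remaining accessory subunits of the NADH module lay close to 0. Ndufs4, whose loss in mice gives a fatal brain disease, had log2 signals of 3.84, 3.80 and 3.72 in null samples and 3.90, 3.94 and 3.70 in wild-type samples at its RefSeq probe (chr13:115078980-115079039), a difference of -0.06 (SE 0.09). A second Ndufs4 probe, designed on another transcript or clone (chr13:115077123-115077182), was well above background on wild-type sample 1 only and was not tested. Its log2 signals were -7.24, -7.04 and -7.01 in null samples and -6.77, -7.47 and -7.11 in wild-type samples, and with no null sample well above background no fold is given. Ndufa2, an accessory subunit with a thioredoxin fold, differed by -0.02 (SE 0.10).

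Ndufs6 and Ndufa12 were each read by overlapping probes, which are printed here from the array files because they show how far probes of 1 gene share their target. Ndufs6 is a zinc-binding accessory subunit. Its 3 probes of 60 bases lie on the minus strand of chromosome 13 (mm9), and capitals mark the 33 bases common to all 3.
Ndufs6 at chr13:73457817-73464875: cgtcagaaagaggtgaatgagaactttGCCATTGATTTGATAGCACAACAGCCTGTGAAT
Ndufs6 at chr13:73457796-73457855: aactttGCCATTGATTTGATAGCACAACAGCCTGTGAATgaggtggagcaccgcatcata
Ndufs6 at chr13:73457790-73457849: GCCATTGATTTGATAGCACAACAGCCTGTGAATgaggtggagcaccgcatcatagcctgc
Their differences were -0.08, -0.04 and -0.07 in that order, with SE of 0.08 to 0.10, and 3 lower probes of this gene are therefore not 3 separate readings. The first of them is placed over 7059 bases of the genome.

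Ndufa12 is the accessory subunit whose place is held during assembly by Ndufaf2. Of its 3 probes, 2 share 40 bases, marked in capitals, on the plus strand of chromosome 10 (mm9), and each is placed over 3315 bases of the genome.
Ndufa12 at chr10:93662740-93666054: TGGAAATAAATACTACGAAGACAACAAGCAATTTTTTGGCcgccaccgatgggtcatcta
Ndufa12 at chr10:93662720-93666034: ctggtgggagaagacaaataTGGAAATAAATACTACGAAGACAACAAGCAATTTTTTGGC
At the first the log2 signals were 3.44, 3.80 and 3.71 in null samples and 3.82, 3.44 and 3.77 in wild-type samples. At the second they were 1.60, 1.97 and 1.86 in null samples and 1.99, 1.58 and 2.04 in wild-type samples. Null sample 1 and wild-type sample 2 were the low arrays at both, so that 1 sample of each genotype stood apart and the differences were -0.02 (SE 0.15) and -0.06 (SE 0.16). The third Ndufa12 probe (chr10:93683562-93683621) shares none of these bases and shows no such split, with 5.42, 5.39 and 5.32 in null samples and 5.40, 5.49 and 5.32 in wild-type samples. These Ndufa12 values were chosen after they were seen, and their cause was not tested.

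The ubiquinone module joins the NADH module to the membrane and reduces ubiquinone. Its 9 probes of 8 genes had a median log2 difference of -0.02, with 6 lower and 3 higher in null samples, and none was called at an unadjusted p under 0.05. Ndufs7, which holds the last iron-sulfur cluster before ubiquinone (chr10:79719439-79719498), had log2 signals of 5.68, 5.65 and 5.58 in null samples and 5.67, 5.68 and 5.64 in wild-type samples. Its difference was -0.03 (SE 0.07), and the 6 arrays spanned 0.10.

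Ndufs3, a core subunit of the same module (chr2:90734839-90734898), had log2 signals of 4.50, 4.42 and 4.29 in null samples and 4.48, 4.52 and 4.45 in wild-type samples. Null samples 2 and 3 lay below every wild-type sample and null sample 1 did not, and the difference was -0.08 (SE 0.08). Ndufs8, which carries a pair of iron-sulfur clusters (chr19:3911200-3911568), had 2.53, 2.37 and 2.36 in null samples and 2.44, 2.56 and 2.30 in wild-type samples. The groups overlapped and differed by -0.02 (SE 0.10).

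The accessory subunits of the ubiquinone module ranged as narrowly. Ndufa5 differed by 0.07 (SE 0.12), Ndufa6, which binds the acyl carrier protein, by -0.05 (SE 0.08), and Ndufa9, a relative of short-chain dehydrogenases, by -0.06 (SE 0.07). Ndufa7 had 2 probes, at 0.01 and -0.01 (SE 0.08 and 0.07). None of these differences exceeded its own SE.

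The proximal part of the membrane arm, which lies nearest the matrix arm, was measured by 16 probes of 9 genes, with 8 lower, 8 higher and a median log2 difference of -0.0037. Ndufa13, also known for a part in cell death, was the 1 member whose 3 null samples all lay below the 3 wild-type samples, where 4.85% of all probes tested did so. Its log2 signals (chr8:72418102-72418161) were 6.93, 6.99 and 6.93 in null samples and 7.05, 6.99 and 7.03 in wild-type samples, a difference of -0.07 (SE 0.07, limma adjusted p 0.774). Null sample 2 and wild-type sample 2 met at the boundary between the groups. Ndufa13 was singled out after its values were seen.

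Ndufa1, encoded on the X chromosome and needed for the membrane arm to form, was at 0.04 and 0.07 at its 2 probes. Ndufa8, with the paired cysteine motif of proteins imported between the membranes, was at 0.03 and 0.00 at 2 probes sharing 40 bases, and Ndufa11 was at -0.01 and 0.02 at 2 probes sharing 50 bases. Ndufa10, a relative of nucleoside kinases, differed by -0.02 and Ndufc2 by -0.06. Ndufa3, Ndufc1 and Ndufs5 were each read also by a probe designed on another transcript or clone. Ndufc1 was at 0.06, 0.04 and, at that probe, -0.05, Ndufa3 at -0.07 and 0.02, and Ndufs5 at -0.02 at both. Every one of these was smaller than its own SE.

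The distal part of the membrane arm, which pumps protons farthest from the matrix arm, was measured by 12 probes of 10 genes with a median log2 difference of -0.02, and 8 of the 12 were lower. Ndufb2, an accessory subunit there, is the gene with the 1 member probe at an unadjusted p under 0.05 and also the 1 gene with probes 0.3 or more apart. Its RefSeq probe (chr6:39548309-39549394) had log2 signals of 5.84, 5.79 and 5.83 in null samples and 5.87, 5.93 and 5.79 in wild-type samples, which overlapped, with a difference of -0.04 (SE 0.07). The other probe, designed on another transcript or clone (chr6:39553019-39553078), had -1.42, -1.24 and -1.21 in null samples and -1.60, -1.50 and -1.61 in wild-type samples. Every null sample lay above every wild-type sample there, where 9.50% of all probes tested did so, and the difference was 0.28 (SE 0.09, unadjusted p 0.0198, adjusted p 0.563 by limma). The differences at the Ndufb2 probes lay 0.32 apart. Within the slide of the null samples and wild-type sample 2, the second probe differed by 0.21 (unadjusted p 0.156 by limma). Leaving out null sample 2, null sample 3 or wild-type sample 1 also took its unadjusted p above 0.05, with differences of 0.25, 0.24 and 0.26.

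The first 30 bases of each Ndufb2 probe, on the plus strand of chromosome 6 (mm9), are given because the probes differ in what they read of the gene.
Ndufb2 at chr6:39548309-39549394: actgggaatccctcctgatgacgaggactg
Ndufb2 at chr6:39553019-39553078: gtcacaacactgttaaatgtttgaggatct
The second probe starts past the end of the first, and exon annotation of mm9 was not used here, so its place in the transcript is not given.

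Ndufb8, another accessory subunit of the distal arm, had its 2 probes deviate in opposite directions on 1 array, and was chosen after its values were seen. Its RefSeq probe (chr19:44624855-44627199) had log2 signals of 6.74, 6.43 and 6.41 in null samples and 6.58, 6.50 and 6.44 in wild-type samples. Its probe designed on another transcript or clone (chr19:44623218-44623277) had -3.71, -3.12 and -3.15 in null samples and -3.35, -3.33 and -2.94 in wild-type samples. Null sample 1 was the highest array at the first and the lowest at the second, and the differences were 0.02 (SE 0.11) and -0.12 (SE 0.20). The plot of probes by gene shows this for Ndufb8 beside Ndufb2, Ndufv2 and Ndufa12.

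**Figure D2:**
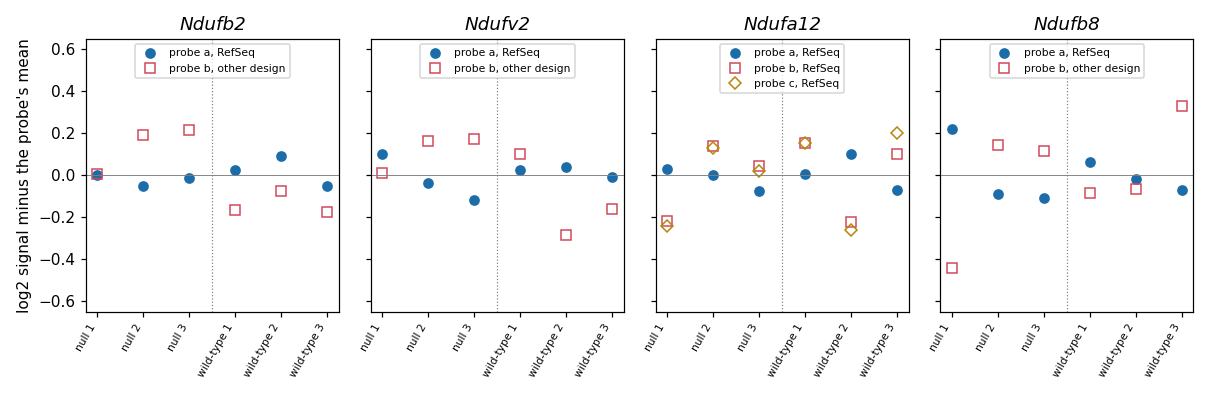
Log2 signal minus the probe's mean over 6 arrays (y axis) for each array (x axis, 3 Dhtkd1 null left of 3 wild-type) at the probes of Ndufb2, Ndufv2, Ndufa12 and Ndufb8. Filled circles and open marks are different probes of 1 gene. At the second Ndufb2 probe all null samples lie above all wild-type samples, and 2 Ndufa12 probes are low in null sample 1 and wild-type sample 2.

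Ndufb9, whose protein binds the acyl carrier protein in the distal arm (chr15:58770972-58771031), had log2 signals of 6.00, 5.88 and 5.85 in null samples and 6.00, 6.06 and 6.06 in wild-type samples. Null samples 2 and 3 were the low arrays, null sample 1 reached the lowest wild-type sample, and the difference was -0.13 (SE 0.08, limma adjusted p 0.676). The remaining genes of the distal arm, Ndufb3, Ndufb4, Ndufb5, Ndufb6, Ndufb7, Ndufb10 and Ndufb11, had 1 probe each. Their differences ran from -0.05 at Ndufb11, encoded on the X chromosome, to 0.05 at Ndufb3, each smaller than its SE.

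Ndufab1 encodes the mitochondrial acyl carrier protein, which sits in complex I and also serves fatty acid synthesis in the mitochondrion. It had 4 tested probes with a median log2 difference of 0.12, and 1 of the 4 was lower in null samples. The median was 0.02 without wild-type sample 3. With slide as a block it was -0.07 and 3 of the 4 probes were lower. The probe that was lower in the main fit was the brightest of the 4. This brightest probe (chr7:129235131-129235190) had log2 signals of 4.64, 4.48 and 4.57 in null samples and 4.70, 4.68 and 4.54 in wild-type samples, a difference of -0.08 (SE 0.08). The other RefSeq probe (chr7:129231667-129231726) had -1.20, -1.12 and -0.95 in null samples and -1.26, -1.12 and -1.28 in wild-type samples, a difference of 0.13 (SE 0.10). The probes of this gene thus gave differences of opposite sign, and the groups overlapped at both.

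At the Ndufab1 probes designed on other transcripts or clones, the signals were -1.18, -1.48 and -1.41 in null samples and -1.51, -1.27 and -1.70 in wild-type samples at chr7:129235362-129235421. They were -0.55, -0.44 and -0.37 in null samples and -0.53, -0.39 and -0.77 in wild-type samples at chr7:129230532-129230591. Wild-type sample 3 was the lowest array at both, and the differences were 0.14 (SE 0.14) and 0.11 (SE 0.12). The remaining Ndufab1 probe (chr7:129233639-129233698) was not well above background on any of the 6 arrays and was not tested. Its log2 signals were -8.86, -7.43 and -8.82 in null samples and -7.00, -7.47 and -8.25 in wild-type samples. With neither group well above background no fold is given.

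The 7 assembly factors were measured by 10 probes, of which 7 were higher in null samples and 3 lower, with a median log2 difference of 0.06, which ranged from -0.02 to 0.09 over the alternatives. By gene, 4 were higher at every probe and 3 lower at every probe. Without wild-type sample 3 the median was -0.02 and 6 of the 10 probes were lower, so the direction rests on that array. Ndufaf1, part of the assembly complex of the membrane arm, had log2 signals of 1.50, 1.61 and 1.48 in null samples and 1.56, 1.69 and 1.42 in wild-type samples. Ndufaf2, the stand-in for Ndufa12, had 3.09, 3.11 and 3.12 in null samples and 3.06, 3.28 and 2.85 in wild-type samples. Ndufaf3, which works with Ndufaf4 on the matrix arm, had 1.20, 1.15 and 1.16 in null samples and 1.09, 1.22 and 0.99 in wild-type samples. In all 3 the null samples lay within the span of the wild-type samples, and the differences were -0.03 (SE 0.10), 0.05 (SE 0.12) and 0.07 (SE 0.08).

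Ndufaf4 had 3 RefSeq probes, all higher in null samples. At chr4:24829194-24829253 its log2 signals were 1.64, 1.89 and 1.71 in null samples and 1.76, 1.73 and 1.60 in wild-type samples, and the difference was 0.05 (SE 0.10). At chr4:24825307-24825366 they were -1.37, -1.22 and -1.18 in null samples and -1.17, -1.28 and -1.52 in wild-type samples, with a difference of 0.07 (SE 0.11). The groups overlapped at both. At chr4:24832031-24832090 the signals were -1.91, -1.95 and -1.83 in null samples and -2.06, -1.98 and -2.28 in wild-type samples. Every null sample lay above every wild-type sample at that probe, and the difference was 0.21 (SE 0.10, unadjusted p 0.0927, adjusted p 0.642 by limma). It was the other of the 2 members that did so beside Ndufb2, or 2.99% of members, where 9.50% of all probes tested did so.

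Ndufaf5, which modifies an arginine of Ndufs7, had log2 signals of 0.96, 1.03 and 0.92 in null samples and 1.05, 0.96 and 0.91 in wild-type samples. Ndufaf6, an early assembly factor, had 0.48, 0.43 and 0.35 in null samples and 0.60, 0.44 and 0.42 in wild-type samples, a difference of -0.07 (SE 0.09). Both pairs of groups overlapped. Ndufaf7, a methyltransferase that acts in assembly, had 2.25, 2.40 and 2.23 in null samples and 2.24, 2.24 and 2.17 in wild-type samples at chr17:79346307-79346366. At chr17:79337906-79338938 it had -1.98, -2.21 and -2.21 in null samples and -2.05, -2.18 and -2.47 in wild-type samples. The Ndufaf7 differences were 0.08 (SE 0.08) and 0.10 (SE 0.13), with overlap at both probes.

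Ndufa4, once counted with complex I and now placed in cytochrome c oxidase, had log2 signals of 5.43, 5.47 and 5.34 in null samples and 5.52, 5.44 and 5.26 in wild-type samples (chr6:11850423-11850482). The groups overlapped and the difference was 0.00 (SE 0.10).

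Of the 44 genes, 25 were lower in null samples at every probe, 11 higher at every probe and 8 mixed. Among the 16 genes with 2 or more tested probes there were 31 pairs of probes, and in 11 of the pairs the differences had opposite signs. The gap between the differences of a pair had a median of 0.04 and a maximum of 0.32, at Ndufb2. The 59 probes designed on RefSeq transcripts had a median difference of -0.02 with 37 lower, and the 8 tested probes designed on other transcripts or clones a median of 0.06 with 3 lower. Probes of the 2 designs also differed in precision, with a median SE of 0.13 at the other designs and 0.09 at the RefSeq probes.

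The spread of the complex I probes over the arrays did not follow genotype, and both ends of it were wild-type samples. The mean over the 67 probes, each relative to its own mean over 6 arrays, was 0.01, 0.02 and -0.03 in null samples and 0.02, 0.06 and -0.08 in wild-type samples. Wild-type sample 3 was the lowest array at 38 of the 67 probes, or 56.7%, beside 35.7% of all probes tested. Wild-type sample 2 was the highest at 32, or 47.8%, beside 20.4% of all probes. All 3 null samples lay between these wild-type samples, as the plot by array shows.

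**Figure D3:**
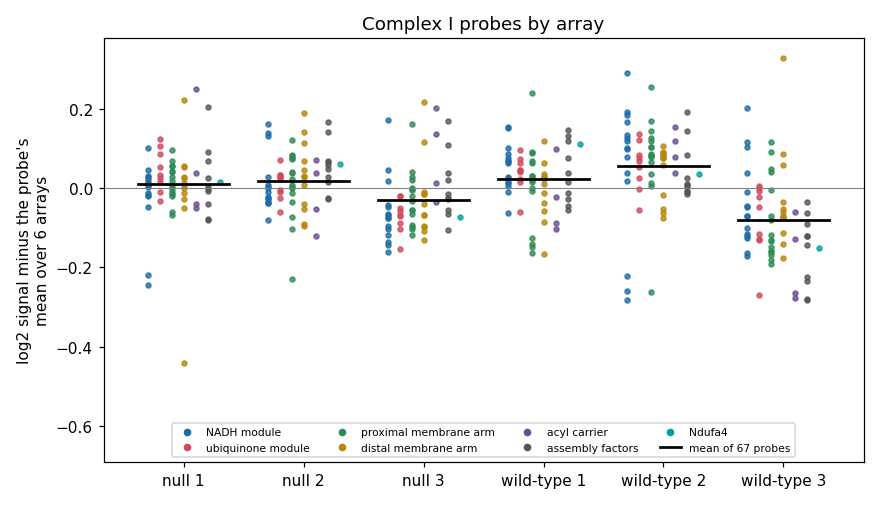
Log2 signal of each of the 67 complex I probes minus its mean over 6 arrays (y axis), by array (x axis, 3 Dhtkd1 null left of 3 wild-type) and coloured by role. Black bars are means over the probes, lowest in wild-type sample 3 at -0.08 and highest in wild-type sample 2 at 0.06.

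Wild-type sample 3 had the lowest 75th percentile and the smallest share of spots well above background. The mean over all probes tested was -0.08 on it and -0.01 to 0.03 on the other 5. All 6 skeletal muscle markers looked for were well above background on every array. The array mean of these muscle markers was 0.31, 0.52 and 0.39 in null samples and -0.34, 1.00 and -1.88 in wild-type samples, highest in wild-type sample 2 and lowest in wild-type sample 3 as for complex I. The mean of the 6 neuron markers was 0.09, 0.02 and -0.04 in null samples and -0.01, 0.06 and -0.12 in wild-type samples, lowest in wild-type sample 3 but highest in null sample 1. Other marker lists had other orders. Oligodendrocyte and microglia markers were lowest in wild-type sample 1, at -0.27 and -0.38, adipocyte markers were highest in null sample 2, at 1.798, and Schwann cell markers were highest in wild-type sample 1, at 2.23. The part of these in the complex I values was not tested.

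Slide 1 held the 3 null samples and wild-type sample 2, and slide 2 held wild-type samples 1 and 3. Within slide 1 the null samples are set against the wild-type array that was highest in the complex I probes. There 50 of the 67 probes were lower in null samples, with a median difference of -0.07, beside a median of 0.01 over all probes. Slide 2 had no null sample and so no value.

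The other genes of the respiratory chain were taken from lists of gene names. Of 22 tested probes of 12 assembly factors with names outside the Nduf series, 11 were lower and 11 higher, with a median log2 difference of -0.0040. Nubpl, which delivers iron-sulfur clusters to complex I, had the smallest p of these and averaged -4.10 ± 0.09 in null samples and -4.31 ± 0.21 in wild-type samples (SD, n = 3 each), a log2 difference of 0.22 (SE 0.13). Foxred1 came next with a difference of -0.17 (SE 0.11), and neither was called at an unadjusted p under 0.05. ND4, a membrane subunit encoded by mitochondrial DNA, had 1 probe, which differed by 0.07 (SE 0.08).

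Complex II, which passes electrons from succinate to ubiquinone, had 14 tested probes of 8 genes. Of these probes 10 were lower in null samples, with a median log2 difference of -0.07. Sdhc, one of its membrane anchors, averaged 3.15 ± 0.06 in null samples and 3.41 ± 0.04 in wild-type samples (SD, n = 3 each). The Sdhc difference was -0.26 (SE 0.07, unadjusted p 0.0126, adjusted p 0.536 by limma), with all 3 null samples below all 3 wild-type samples. Sdhaf1, an assembly factor of complex II, differed by -0.16 (SE 0.08), also without overlap. Complex II had 3 of 14 probes with every null sample below every wild-type sample, or 21.4%, where the share among all probes was 4.85%. It was the highest such share among the respiratory chain and ribosome lists, but it rests on few probes. Probes of the same gene are not separate readings. The share was 4.11% of 73 probes of complexes III, IV and ATP synthase and 2.36% of 127 mitochondrial ribosome probes. Null samples lay above at 5.51% of the ribosome probes, where 9.50% of all probes tested did so.

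Complexes III and IV and ATP synthase together had 73 tested probes, with 44 lower and a median log2 difference of -0.01. Cox16, an assembly factor of complex IV, differed by -0.23 (SE 0.11) and Cox4i2, an isoform of a complex IV subunit, by 0.32 (SE 0.17), and none of the 73 was called at an unadjusted p under 0.05. The Cox4i2 probe was dim, with mean log2 signals of -6.71 in null samples and -7.03 in wild-type samples. The mitochondrial ribosome had 127 tested probes, with 59 lower and a median of 0.0036. Mrps2 was called higher at an unadjusted p under 0.05 with a difference of 0.22 (SE 0.08, adjusted p 0.590 by limma), and Mrpl1 differed by 0.23 (SE 0.10). No probe of any of these lists passed the adjusted threshold by limma. The plot of array means sets the larger lists beside complex I.

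**Figure D4:**
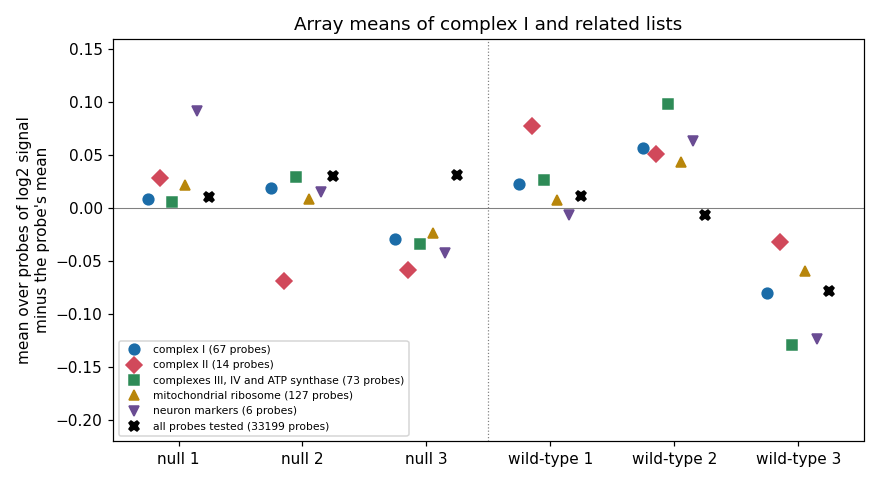
Mean over the probes of each list of log2 signal minus the probe's mean over 6 arrays (y axis), by array (x axis, 3 Dhtkd1 null left of 3 wild-type). Complex I, complexes III, IV and ATP synthase and the mitochondrial ribosome are each highest in wild-type sample 2 and lowest in wild-type sample 3. The black crosses are the 33199 probes with a value on every array.

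Sequence features were described for what the members share beyond their names. The 69 probes had a median GC content of 45%, beside 40% over all 41174 probes of 60 bases. Promoters from RefSeq (GRCm38.p6), from 250 bases before to 50 after a start, were found for 39 of the 44 genes, 41 promoters in all. The letters GCGCATGCG, from the motif of NRF-1, a factor known for control of nuclear respiratory genes, were present in 4 of the 41, or 9.76%, beside 1.75% of 32851 promoters. Every motif was searched on both strands with no mismatch. The 4 genes were Ndufa8, Ndufa11, Ndufaf4 and Ndufaf5. The letters AAGATGGCG of YY1 were in 5 of 41, at Ndufa9, Ndufc1, Ndufs4, Ndufs6 and Ndufs7, or 12.2% beside 1.40%. The ETS family motif CCGGAAG was also in 5 of 41, at Ndufaf1, Ndufb6, Ndufb7, Ndufs3 and Ndufs8, beside 8.86% of all promoters, and TCAAGGTCA of the estrogen-related receptors was in none, beside 0.423%.

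The Ndufaf4 promoter is printed because this gene held 1 of the 2 probes with every null sample above every wild-type sample. Such probes were 2.99% of the members, beside 9.50% of all probes tested, and the groups overlapped at the remaining Ndufaf4 probes. It is the 250 bases up to the start on the plus strand (GRCm38.p6, chr4:24897833-24898082), with the NRF-1 letters, which begin 113 bases before the start, in capitals.
Ndufaf4 promoter: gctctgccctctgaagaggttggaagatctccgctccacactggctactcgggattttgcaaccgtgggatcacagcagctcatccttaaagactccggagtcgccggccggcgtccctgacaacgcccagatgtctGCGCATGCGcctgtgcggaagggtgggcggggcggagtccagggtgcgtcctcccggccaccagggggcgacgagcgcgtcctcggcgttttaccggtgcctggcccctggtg
The match is a description of the sequence and not of binding, which was not measured. The other genes with these letters, Ndufa8, Ndufa11 and Ndufaf5, differed by -0.01 to 0.03 between the groups over their 5 probes.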

How the data were processed

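Each of the 6 samples has 1 Agilent array (design 014868), read by Feature Extraction 10.7.3.1. Per the file headers, local background and spatial trend were removed from the deposited processed intensity, with no normalization between arrays, and probe positions are on mm9. The deposited value table is in log2 units with the same quantiles in all columns; how the authors made it is not given in the sources used here, and it served as an alternative.

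Signals were log2 processed intensity minus the array's 75th percentile over non-control spots. Spots flagged as outliers were left out (none was an Nduf spot), repeated spots were averaged, and probes well above background on at least 3 of 6 arrays were kept, each on its own. The array number limits the precision. Dhtkd1 null minus wild-type was fitted over all 33208 kept probes with limma 3.58.1 (lmFit and eBayes, 2-sided, R 4.3.3, no covariate, Benjamini-Hochberg adjustment over all of them). SE is the moderated standard error. With 3 arrays in each group, 0.1 is the smallest p of an exact permutation test, so none is reported. The fit was tested on simulated data. Symbols were checked against RefSeq, 59 member probes by accession and 10 by symbol. Python 3.11.15 was used for summaries.

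The members and lists were chosen with earlier results of these data known. Every Nduf gene was to be named; the values of 1 gene are not reported here, although counts and medians over the probes include it. Values per sample were to be given for nuclear core subunits, probes at an unadjusted p under 0.05 or differing by 0.585 or more on the log2 scale (no tested probe did), probes below background throughout a group, genes with probes at least 0.3 apart, Ndufab1, Ndufa4 and the Ndufaf genes, and per pathway list the 2 genes of smallest p. Others were chosen after their values were seen, as stated there. The alternatives were median centring, quantile normalization, the authors' value table, normexp background correction (offset 50), other filters, outlier spots kept, slide as a block or slide 1 alone, a replicate block, 1 probe per gene, trend and robust variance, and leaving out each sample.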

Additional observations from a re-analysis of the deposited data

How the results depend on the processing

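Under all 19 alternatives 0 complex I probes passed the adjusted threshold by limma, with 0 to 1 higher at an unadjusted p under 0.05 except with normexp, where 2 were (Ndufaf4 and Ndufb2). With 1 probe per gene 0 of 44 were higher, the Ndufb2 probe being left out by construction. With slide as a fixed block, and on slide 1 alone, 1 was lower (Ndufv3) and 1 higher (Ndufv2 in place of Ndufb2, which differed by 0.21). Leaving out each sample in turn gave 0 to 1 higher, 0 to 1 lower and a median difference of -0.04 to 0.02. The higher count was 0 without Dhtkd1 null sample 2 or 3, and without wild-type sample 1 Ndufv3 was lower and Ndufv2 higher. The median was above 0 without wild-type sample 2 (0.02) or null sample 3 (0.01). Median centring gave 53 of 67 lower and a median of -0.07, against -0.02 over all probes. Over all probes 67.3% of calls at an unadjusted p under 0.05 were higher, but 48.2% with quantile normalization or the authors' value table and 48.1% with median centring. With the replicate number as a block the median was -0.02 with 1 higher and 0 lower. Same-numbered samples correlated at -0.02, -0.09 and 0.30 in their deviations, and differently numbered samples at -0.20 to 0.24. The value of 0.30 was above that range and the others lay within it, and the numbers were not read as pairs. Signal over background limits the 2 probes that were not tested, and 3 arrays per group limit the rest, with 95% intervals reaching a median of 0.23 to either side.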
